A study of Homo sapiens with 12 samples.

Results

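The genes of the 4 human HOX clusters were examined together with the noncoding RNAs transcribed from them. A gene was included when its symbol in the deposited table was HOX followed by A, B, C or D and a number, with or without an antisense suffix, or was HOTAIRM1, HOTTIP or HOTAIR. Where a symbol had several transcripts, the one with most normalized reads on average was kept. This gave 45 symbols of the 44786 in the table, with 15 in the HOXA cluster, 10 in HOXB, 11 in HOXC and 9 in HOXD. Of these, 39 were coding genes and 6 were noncoding RNAs.

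HOX genes encode homeodomain transcription factors that set position along the body axis, and in blood they help to keep stem and progenitor cells immature. Each cluster is read in order: the genes at its 3′ end (low numbers, called anterior here for groups 1 to 3) act first and respond most directly to retinoic acid, whereas the genes at the 5′ end (high numbers, called posterior for groups 9 to 13) act last. Genes with the same number in different clusters are paralogues. Silent HOX clusters are held by Polycomb complexes, and their dense CpG islands can become methylated in tumours, whereas leukemias with MLL or CALM-AF10 fusions are known for high HOXA expression.

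RNA-seq was carried out in U937, a single human AML cell line of myelomonocytic origin, which is known to carry a CALM-AF10 fusion. There were 4 groups with 3 libraries each: untreated cells, cells given 200 nM decitabine (DAC, an inhibitor of DNA methyltransferases), cells given 1 µM all-trans retinoic acid (ATRA, the ligand of the retinoic acid receptors), and cells given both. Treatment ran over 3 days. For all groups the labels give a medium with 20% FCS and 5 ng/ml GM-CSF, whereas the methods of the study state another share of serum and name no GM-CSF. The labels give 96 h for the untreated cells and 72 h for each treated group, and they put ATRA at 72 h, whereas the methods of the study add it with the last DAC pulse. The libraries of a group are called technical triplicates by the submitters, so p-values measure only the spread between such libraries. In bulk RNA, fewer cells that express a gene and less RNA per cell cannot be told apart.

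The libraries held 8042435 to 10683593 counted reads, so that 3 reads stood for 2.50 to 3.71 normalized reads. Values are the deposited read counts per transcript divided by a size factor for each library, and they are called normalized reads below. The myeloid markers MPO, CEBPA, CD33, LYZ and SPI1 were present in every library, whereas CSF1R ranged from 0 to 19.9 normalized reads and CD14 from 0 to 2.47. Of the markers of other cell types, HBA1, HBB, CDH1 and DCN had no read, but CD79A reached 1385, CD2 reached 385 and COL1A1 reached 252 normalized reads. The retinoic acid target DHRS3, a retinaldehyde reductase, went from 385 ± 12.7 in untreated cells (mean ± SD, n = 3) to 4664 ± 672 with ATRA, a check of the ATRA labels.

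For each comparison, 19373 transcripts with at least 10 normalized reads in at least 3 libraries were tested, and a gene was called changed at an adjusted p under 0.01. All fold changes were taken after adding 1 to the normalized reads and are given as log2 values, so that the change of low genes is understated. Of the 45 HOX symbols, 30 passed this filter: 13 in HOXA, 8 in HOXB, 8 in HOXC and 1 in HOXD. Among these, 15 had at least 10 normalized reads in every untreated library, and 13 were under 10 in every untreated library and thus entered the test through treated libraries, so that they had to differ. The latter were HOXA2, HOXA10-AS, HOXB2, HOXB4, HOXB5, HOXB7, HOXB8, HOXB9, HOXB13, HOXC5, HOXC11, HOXC12 and HOXD10, and their differences from groups in which they are low are given as a description. The other 15 symbols are described by their values only.

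The untreated cells expressed mainly the HOXA cluster. Summed over its members, HOXA had 3689 ± 124 normalized reads in untreated cells (mean ± SD, n = 3), HOXC had 182 ± 24.8 and HOXB had 17.7 ± 5.02, whereas HOXD had a single read in 1 of the 3 libraries. With DAC, the HOXB sum was 1102 ± 102, which is 62.1 times the untreated level, and with DAC + ATRA it was 2041 ± 53.2, or 115 times. The HOXC sum was 4.41 times the untreated level with DAC and 3.05 times with DAC + ATRA, and the HOXA sum was 1.26 and 1.11 times. The share of all HOX reads that came from HOXB was thus 0.453% ± 0.115 in untreated cells, 16.7% ± 1.25 with DAC, 0.765% ± 0.179 with ATRA and 30.3% ± 0.629 with both, and the DAC and the DAC + ATRA libraries overlapped neither with each other nor with the rest.

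DAC alone changed 22 of the 30 tested members, 21 upward and 1 downward, whereas 33.5% of all tested transcripts were called (22.2% higher and 11.3% lower). ATRA alone changed 3 members, all upward, against 6.97% of all transcripts (5.11% higher and 1.87% lower). DAC + ATRA changed 21 members, all upward, against 41.6% of all transcripts (25.5% higher and 16.1% lower). Over the 30 members the median log2 fold change was 1.20 for DAC, 0.13 for ATRA and 1.47 for both drugs. Over all tested transcripts the medians were 0.05, 0 and 0.05. The 5 tested members with no read in untreated cells (HOXB5, HOXB7, HOXB8, HOXB9 and HOXD10) lay above the median with DAC and with DAC + ATRA also when set at the lower bounds given below. Restricted to the 15 members with at least 10 normalized reads in every untreated library, 9 rose with DAC and 7 with DAC + ATRA, with medians of 0.56 and 0.53. These 3 comparisons share the untreated libraries and are therefore not independent of each other. In each of these calls, the 3 libraries of one group lay outside the range of the other group, for which the exact permutation test of 3 against 3 libraries can give no p below 0.1.

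**Figure D1:**
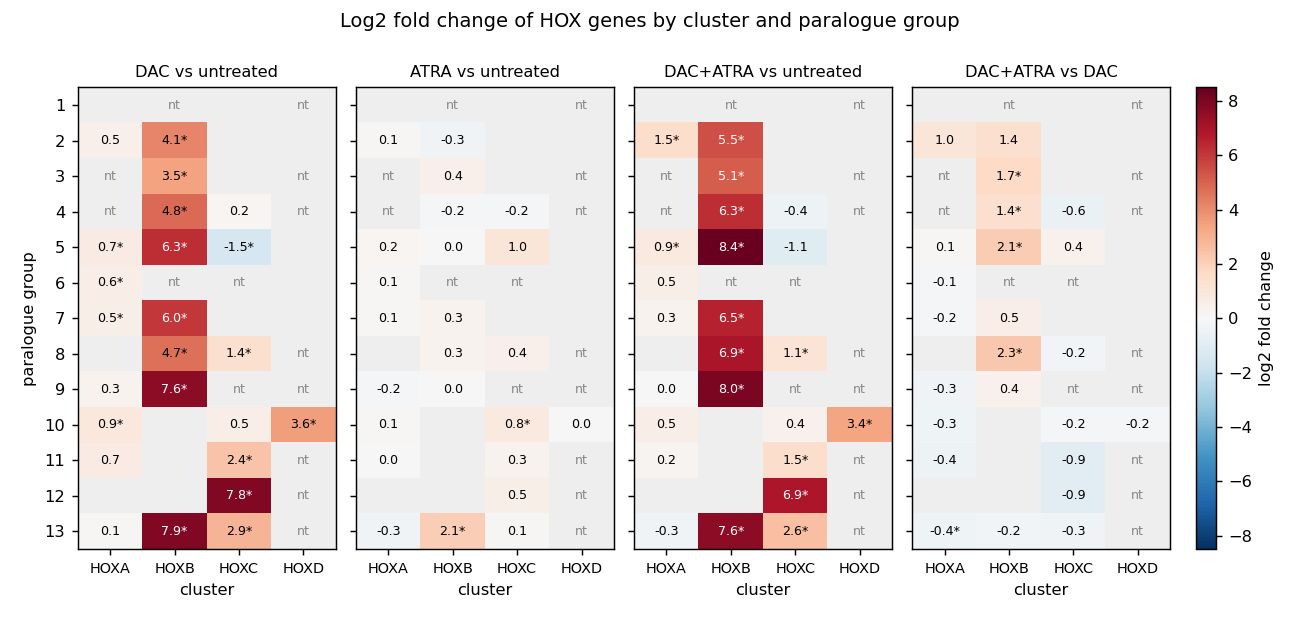
Log2 fold change of each coding HOX gene by cluster (columns) and paralogue group (rows, 1 at the 3′ end) in 4 comparisons; an asterisk marks an adjusted p under 0.01, nt marks a gene under the filter, and a blank cell marks a gene that does not exist or is not shown. All 8 tested HOXB genes were higher with DAC and with DAC + ATRA, HOXC8, HOXC11, HOXC12 and HOXC13 were higher and HOXC5 was lower with DAC, and in the panel that compares DAC + ATRA with DAC the called genes included HOXB3, HOXB4, HOXB5, HOXB8 and, as a lower value, HOXA13.

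The HOXB cluster (hg38 chr17:48528526-48728750) was close to silent without DAC. No read was found in any untreated library for 6 of its 10 genes (HOXB1, HOXB5, HOXB6, HOXB7, HOXB8 and HOXB9), and only HOXB3 reached 10 normalized reads in every untreated library. All 8 tested HOXB genes rose with DAC, and all 8 rose with DAC + ATRA. HOXB13, the most 5′ gene, which is known for its role in the prostate, had 0, 2.73 and 0.924 in the untreated libraries, 405, 487 and 464 with DAC, 9.50, 7.28 and 5.83 with ATRA and 373, 406 and 361 with DAC + ATRA (normalized reads in libraries 1 to 12). Its DAC libraries were far above both the untreated and the ATRA libraries, with a log2 fold change of 7.87 ± 0.31 (SE) and a ratio of 371-fold (95% exact counting interval 145 to 1363, 1341 against 4 reads). HOXB9 had 0 in all untreated and ATRA libraries, 209, 179 and 188 with DAC and 238, 247 and 272 with DAC + ATRA. This is at least 209-fold and at least 273-fold higher than the level that 3 reads over the untreated group would give.

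The central HOXB genes, several of which act in progenitor cells of the blood, were also counted mainly in the libraries with DAC. HOXB5 had 0 in all untreated and ATRA libraries, 56.2, 97.4 and 80.7 with DAC and 317, 349 and 344 with DAC + ATRA. It was thus at least 85.9-fold and at least 366-fold higher than in untreated cells. HOXB4, which is known to expand hematopoietic stem cells when forced, had 1.84, 4.55 and 2.77 in the untreated libraries, 98.4, 117 and 115 with DAC, 3.17, 0.910 and 4.16 with ATRA and 299, 317 and 281 with DAC + ATRA. Its 6 libraries with DAC all exceeded its 6 libraries without DAC. Its log2 fold change was 4.83 ± 0.31 (SE) with DAC and 6.26 ± 0.31 (SE) with both drugs. HOXB7 had 0 in the untreated libraries, 49.7, 68.2 and 70.7 with DAC, 0, 0 and 0.832 with ATRA and 82.3, 107 and 85.3 with both. HOXB8, which blocks myeloid maturation when forced, had 0 in the untreated libraries, 15.1, 33.1 and 27.9 with DAC, 0, 0.910 and 0 with ATRA and 124, 127 and 114 with both. In untreated cells HOXB7 and HOXB8 lay under 3 reads over the group, and with DAC they were at least 69-fold and at least 28-fold above that floor.

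At the 3′ end of the cluster, HOXB3 was the only member with a clear level before treatment. Its values were 10.1, 12.7 and 15.7 in the untreated libraries, 143, 180.2 and 127 with DAC, 22.2, 11.8 and 20.0 with ATRA and 477, 479 and 487 with DAC + ATRA. The log2 fold change of HOXB3 was 3.45 ± 0.21 (SE, adjusted p = 7.36e-13) with DAC and 5.14 ± 0.21 (SE, adjusted p = 1.46e-16) with DAC + ATRA. The ATRA libraries of HOXB3 overlapped the untreated ones, at 0.43 ± 0.21 (SE, adjusted p = 0.233). HOXB2 had 0, 0.910 and 0.924 in the untreated libraries, 18.4, 36 and 25.9 with DAC, 0, 0.910 and 0 with ATRA and 75, 60.0 and 72.9 with DAC + ATRA. The ratio of DAC to untreated cells was 44.2-fold (95% exact counting interval 11.9 to 372, 80 against 2 reads). Its untreated and ATRA libraries held at most 1 read each, and all libraries with DAC lay above them. HOXB1 and HOXB6 stayed under the filter. HOXB1, an early target of retinoic acid in the embryonic hindbrain, had no read in the 9 libraries of the other groups and 3.62, 1.05 and 4.94 normalized reads with DAC + ATRA (9 reads over the group, at least 3.09-fold above the floor of 3 reads in the DAC group). HOXB6 had no read without DAC, 3.24, 2.92 and 6.97 with DAC and 9.04, 6.32 and 3.71 with DAC + ATRA.

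**Figure D2:**
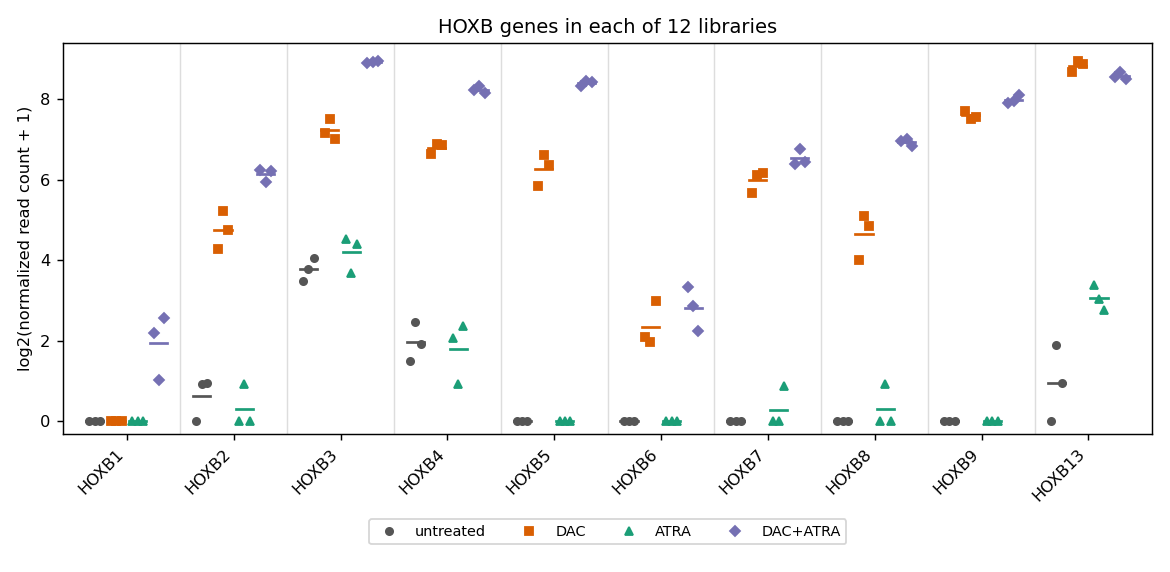
Level of the 10 HOXB genes in each library as log2(normalized read count + 1), ordered from the 3′ end (HOXB1) to the 5′ end (HOXB13); points are libraries, 3 per group, and bars are group means. From HOXB2 to HOXB13 the DAC and DAC + ATRA libraries lay above the untreated and ATRA libraries for every gene, and the DAC + ATRA libraries lay above all DAC libraries for each of HOXB2, HOXB3, HOXB4, HOXB5, HOXB7, HOXB8 and HOXB9, but not for HOXB6 and HOXB13.

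The comparison of DAC + ATRA with DAC asks what ATRA added in cells that had also received DAC, and it shares the DAC libraries with the comparison of DAC and untreated cells. Of the 30 tested members, 6 were higher and 1 was lower, whereas 8.77% of all tested transcripts were called (5.18% higher and 3.59% lower). The higher members included HOTAIRM1, HOXB3, HOXB4, HOXB5 and HOXB8, and the lower one was HOXA13. HOXB8 rose by a log2 fold change of 2.28 ± 0.40 (SE, adjusted p = 0.000173), HOXB5 by 2.13 ± 0.31 (SE, adjusted p = 1.41e-05), HOXB3 by 1.69 ± 0.21 (SE, adjusted p = 1.73e-06) and HOXB4 by 1.44 ± 0.31 (SE, adjusted p = 0.00147). Among these, the call of HOXB3 held under each alternative. The call of HOXB4 was lost without DAC library 4 or DAC + ATRA libraries 10 or 11 (log2 fold change 1.36 to 1.44, adjusted p 0.0121 to 0.0147). Those of HOXB5 and HOXB8 held without each single library, although a pseudocount of 0.1 ended all 3 (adjusted p = 0.027 for HOXB4, 0.0291 for HOXB5 and 0.0984 for HOXB8). For HOXB2 the value was 1.38 ± 0.42 (SE, adjusted p = 0.0244) so that it missed the threshold, although the groups did not overlap and DESeq2 (adjusted p = 0.000566) and edgeR (adjusted p = 6.09e-05) called it. For HOXB7 the value was 0.54 ± 0.37 (SE, adjusted p = 0.398), for HOXB9 0.39 ± 0.28 (SE, adjusted p = 0.418) and for HOXB13 -0.25 ± 0.31 (SE, adjusted p = 0.704), and none of these was called, although for HOXB7 and HOXB9 the groups did not overlap.

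Read by position, the sums of the anterior and of the central HOXB genes were higher with DAC + ATRA than with DAC, whereas the sum of the posterior genes was not. The summed anterior genes HOXB1 to HOXB3 had 177 ± 34.3 normalized reads with DAC and 554 ± 12.5 with DAC + ATRA, a ratio of 3.13. For the 5 central genes HOXB4 to HOXB8 the sums were 281 ± 51 and 855 ± 45.2, a ratio of 3.05. The posterior genes HOXB9 and HOXB13 had 644 ± 27.1 and 633 ± 21.3, a ratio of 0.982. This sum joins a higher mean of HOXB9 (192 with DAC, 252 with both) and a lower mean of HOXB13 (452 and 380). Most of the anterior sum came from HOXB3, with means of 150 and 481. Within single libraries, HOXB5 stood at 0.269 to 0.543 times the HOXB9 count with DAC and at 1.26 to 1.41 times with DAC + ATRA, so that the ratio between these genes, chosen after their values were seen, did not overlap between the groups. The order was not strict, since HOXB7 lies between HOXB5 and HOXB8 but had a smaller difference than either. The differences between the genes were not tested.

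**Figure D3:**
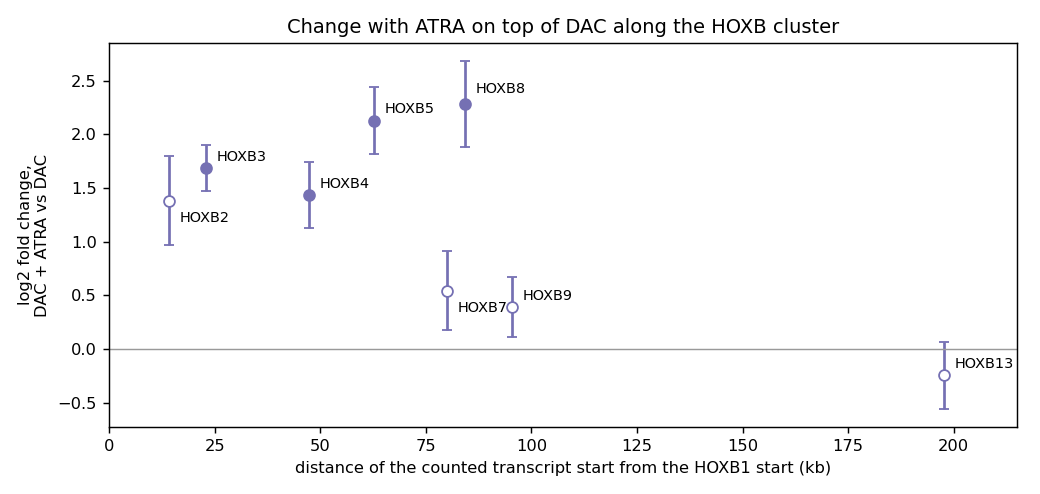
Log2 fold change between DAC + ATRA and DAC (± SE, 3 against 3 libraries) for the 8 tested HOXB genes, plotted against the distance in kb of the counted transcript's start from the HOXB1 start; filled points had an adjusted p under 0.01. HOXB2, HOXB3, HOXB4, HOXB5 and HOXB8 lay between 1.38 and 2.28, whereas HOXB7, HOXB9 and HOXB13 lay between -0.25 and 0.54.

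Whether the 2 drugs together gave more or less than the sum of their separate log2 changes was tested with an interaction term. It was called for 2 of the 30 members, 1 in each direction, against 1.51% of all tested transcripts (0.527% higher and 0.986% lower). For HOXB5 the term was 2.13 ± 0.44 (SE, adjusted p = 0.00444). With 0 reads in all untreated and all ATRA libraries, it is the same value as that of DAC + ATRA against DAC, and no departure from additivity was measured for HOXB5. This call was lost without DAC libraries 4 or 6 or DAC + ATRA libraries 10, 11 or 12 (log2 fold change 1.91 to 2.17, adjusted p 0.0183 to 0.0386). For HOXB13 the interaction was below 0, at -2.37 ± 0.44 (SE, adjusted p = 0.00281). This call was lost without untreated library 3, ATRA library 7 or DAC + ATRA library 10 (log2 fold change -2.37 to -2.21, adjusted p 0.0103 to 0.0154). ATRA alone raised HOXB13 by 2.12 ± 0.31 (SE, adjusted p = 4.49e-05), or 6.04-fold (95% exact counting interval 2.08 to 24, 24 against 4 reads), whereas in cells with DAC the value for added ATRA was -0.25 ± 0.31. The call with ATRA alone held without each single library. It was lost with DESeq2 (adjusted p = 0.0149, and 0.015 without DAC library 6), with a pseudocount of 0.1 (adjusted p = 0.0591) and when only the groups compared were fitted (adjusted p = 0.0148). For HOXB3 the interaction was 1.26 ± 0.30 (SE, adjusted p = 0.0163) and for HOXB4 1.61 ± 0.43 (SE, adjusted p = 0.0365), with neither called. Without ATRA library 9 both became calls (adjusted p = 0.0066 for HOXB3 and 0.00494 for HOXB4). HOXB3 also did so without the filter (adjusted p = 0.00685), without untreated library 1 (0.00815) and without ATRA library 7 (0.00824). DESeq2 called neither of the 2 interactions (adjusted p = 0.657 for HOXB5 and 0.0126 for HOXB13), and edgeR called HOXB13 only (adjusted p close to 1 for HOXB5).

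Retinoic acid receptors are known to bind direct repeats of a hexamer with 5 bases between the repeats (DR5), and such elements are known in the HOX clusters. The 4 clusters with 20 kb on each side were searched on both strands for pairs of half-sites separated by 5 bases, where a half-site was the hexamer AGGTCA or the hexamer AGTTCA, or as a variant of these the hexamer GGGTCA or the hexamer GGTTCA, because several members rose when ATRA was added to DAC. The search found 3 in HOXA, 2 in HOXB, 1 in HOXD and none in HOXC. Of all windows of the same length along the same chromosome, 0.388% held as many as HOXA, 9.25% as many as HOXB and 23.4% as many as HOXD. The matches inside HOX genes or beside HOXB1 (hg38) are shown 5′ to 3′ on the strand named, with the hexamers in capitals, because receptors of ATRA can bind such repeats.
HOXA, chr7:27113524-27113540, minus strand, in an intron of HOXA3: GGTTCAagaagAGTTCA
HOXB, chr17:48522274-48522290, minus strand, 6236 bases downstream of HOXB1: GGTTCAtagagAGTTCA
HOXB, chr17:48555430-48555446, minus strand, in an exon of a HOXB3 transcript: GGTTCAagaagAGTTCA
HOXD, chr2:176165913-176165929, plus strand, in an intron of HOXD3: GGTTCAagcagAGTTCA
The matches in HOXA3 and HOXB3, which are paralogues, had the same 17 bases. A match is a description of the sequence and not a measured binding site.

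In the HOXA cluster, HOTAIRM1 near the 3′ end was higher in all 6 libraries with ATRA than in the 6 without it. HOTAIRM1, a noncoding RNA that starts beside HOXA2 and is known to be induced by retinoic acid in myeloid cells, had 20.2, 35.5 and 34.2 in the untreated libraries, 22.7, 37 and 21.9 with DAC, 48.6, 55.5 and 64.1 with ATRA and 57, 53.7 and 53.1 with DAC + ATRA. The log2 fold change was 0.91 ± 0.24 (SE, adjusted p = 0.011) with ATRA alone and thus not called, 0.89 ± 0.24 (SE, adjusted p = 0.00308) with DAC + ATRA, 1.02 ± 0.24 (SE, adjusted p = 0.00371) for DAC + ATRA against DAC and -0.13 ± 0.24 (SE, adjusted p = 0.674) with DAC alone. The call against DAC was lost without DAC libraries 4 or 6 or DAC + ATRA libraries 10, 11 or 12 (log2 fold change 0.89 to 1.04, adjusted p 0.0138 to 0.0277). The call with DAC + ATRA was lost without untreated library 1 or DAC + ATRA library 10 (log2 fold change 0.63 to 0.85, adjusted p 0.0139 to 0.0346). The value with ATRA alone became a call with edgeR (adjusted p = 0.00705, and 0.00608 without DAC library 6). It also did so with rows summed by symbol (adjusted p = 0.00991) and without DAC library 5 (adjusted p = 0.0067). Only 61 bases of the counted transcript lie outside other transcripts on the same strand, so its count may hold a small part of its reads. HOXA2, a hindbrain gene, had 1.84, 5.46 and 6.46 in the untreated libraries, 7.57, 5.85 and 4.98 with DAC, 6.34, 2.73 and 4.99 with ATRA and 16.3, 13.7 and 11.1 with DAC + ATRA. The DAC + ATRA libraries lay above all others. It passed the filter only through the DAC + ATRA libraries, so that its calls as higher than in untreated cells and than with ATRA (1.41 ± 0.43 on the log2 scale, SE) are a description. Against DAC the value was 1.04 ± 0.43 (SE, adjusted p = 0.113). The call against untreated cells was lost without untreated library 1 or DAC + ATRA libraries 10 or 11 (log2 fold change 1.07 to 1.49, adjusted p 0.0155 to 0.048). The call against ATRA was lost in 16 of 23 alternatives, among them without untreated libraries 2 or 3, DAC libraries 4, 5 or 6, ATRA libraries 8 or 9 or DAC + ATRA libraries 10, 11 or 12 (log2 fold change 1.13 to 1.54, adjusted p 0.01 to 0.0603). HOXA3 stayed under the filter with 3.17 to 13.3 normalized reads, and HOXA4 had no read in any library, which says little because only 41 bases of its counted transcript lie outside other transcripts on the same strand.

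The HOXA genes from HOXA5 to HOXA13 were expressed before treatment, and their log2 fold changes stayed under 1 in all 6 comparisons. HOXA7 had 671, 764 and 685 in the untreated libraries, 1001, 984 and 1005 with DAC, 839.5, 805 and 658 with ATRA and 801, 886 and 960.2 with DAC + ATRA. HOXA7 rose with DAC by 0.50 ± 0.11 (SE, adjusted p = 0.000739). HOXA5, a gene often methylated in AML, had 378, 337 and 318 in the untreated libraries, 509, 575 and 631 with DAC, 434, 429 and 303 with ATRA and 589, 660.0 and 617 with DAC + ATRA. Its 6 libraries with DAC lay above its 6 libraries without DAC. HOXA5 rose by 0.73 ± 0.13 (SE, adjusted p = 7.47e-05) with DAC and by 0.85 ± 0.13 (SE, adjusted p = 6.81e-06) with DAC + ATRA. HOXA10, which holds back myeloid differentiation when forced, had 76.3, 100.1 and 77.6 in the untreated libraries, 125, 144 and 205 with DAC, 71.8, 106 and 93.2 with ATRA and 111, 133 and 124 with DAC + ATRA. It rose with DAC by 0.87 ± 0.18 (SE, adjusted p = 0.000361), with the DAC libraries apart from the untreated ones, and its value with DAC + ATRA was 0.53 ± 0.18 (SE, adjusted p = 0.0168). HOXA6 had 113, 71 and 83.1 in the untreated libraries, 121, 141 and 127 with DAC, 109.8, 98.3 and 81.6 with ATRA and 115, 121 and 129 with DAC + ATRA. HOXA6 rose with DAC by 0.56 ± 0.17 (SE, adjusted p = 0.00856). This call was lost in 16 of 23 alternatives, among them without untreated libraries 2 or 3, DAC libraries 4, 5 or 6 or DAC + ATRA libraries 10, 11 or 12 (log2 fold change 0.42 to 0.61, adjusted p 0.0109 to 0.0766).

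HOXA9, the HOX gene most closely tied to AML, was not called in any of the 6 comparisons. The transcript counted for HOXA9 has no defined coding sequence, and its start lies 9643 bases from the RefSeq start of this gene. Its transcript had 67 ± 6.28 normalized reads in untreated cells, 84.6 ± 10.6 with DAC, 61.7 ± 20.0 with ATRA and 67.7 ± 8.51 with both, and its log2 fold change with DAC + ATRA was 0.01 ± 0.20 (SE, adjusted p = 0.966). Summed over its 6 rows, HOXA9 had 127 ± 8.70 in untreated cells, 160.5 ± 23.1 with DAC, 111.7 ± 20.8 with ATRA and 133 ± 12 with both drugs. HOXA11 was not called either, at 31.5 ± 5.79 in untreated cells and 50.4 ± 4.76 with DAC, where its log2 fold change was 0.67 ± 0.21 (SE, adjusted p = 0.012). This value became a call with 1 row kept per symbol (adjusted p = 0.00979), with rows summed by symbol (adjusted p = 0.00589) and without ATRA library 9 (adjusted p = 0.00859). HOXA13, at the 5′ end and the most counted member, had 1913, 2084 and 2079 in the untreated libraries, 2185, 2300.1 and 2059 with DAC, 1689, 1638 and 1710.4 with ATRA and 1542, 1754 and 1728 with DAC + ATRA. The 6 libraries with ATRA all lay below the 6 without it, and DAC + ATRA gave -0.38 ± 0.09 (SE, adjusted p = 0.00558) on the log2 scale when set against DAC. Its values against untreated cells were -0.27 ± 0.09 (SE, adjusted p = 0.0666) with ATRA and -0.28 ± 0.09 (SE, adjusted p = 0.016) with both. The call against DAC was lost without untreated library 2, DAC libraries 4 or 5 or DAC + ATRA libraries 10, 11 or 12 (log2 fold change -0.42 to -0.32, adjusted p 0.0104 to 0.0462). Scaling by library totals turned the ATRA value into a call (-0.34, adjusted p = 0.00482). The value with both drugs became a call under 7 of 23 alternatives, among them edgeR (adjusted p = 0.00551) and library totals (-0.42, adjusted p = 9.9e-05).

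**Figure D4:**
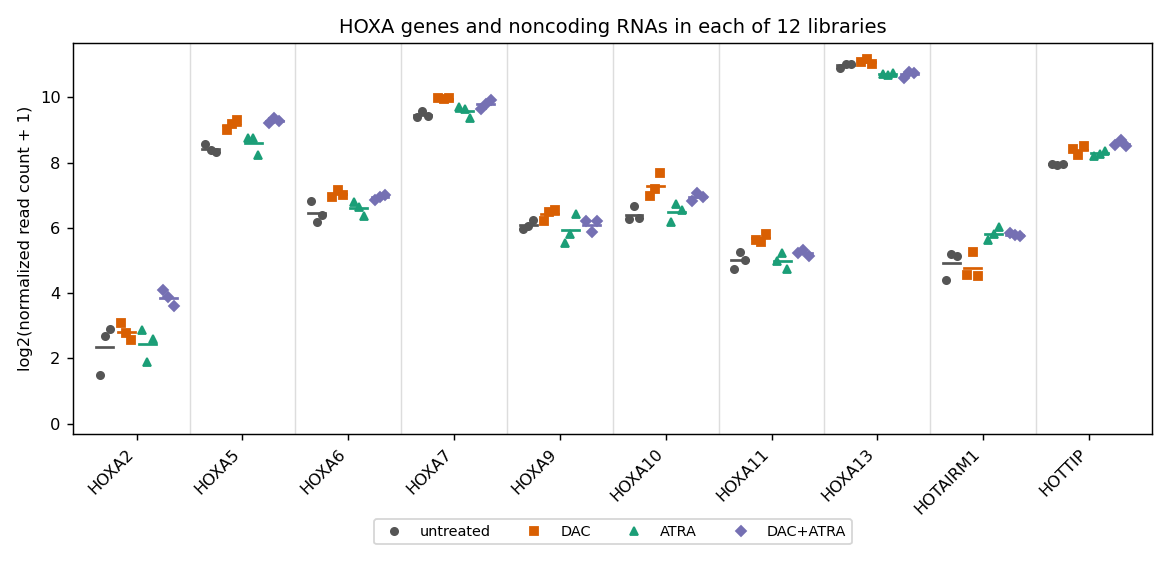
Level of 8 HOXA genes, HOTAIRM1 and HOTTIP in each library as log2(normalized read count + 1); points are libraries, 3 per group, and bars are group means. HOTAIRM1 was higher in the ATRA and DAC + ATRA libraries, HOXA13 was slightly lower in them, and HOXA9 overlapped among the groups.

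HOXA10-AS and HOXA11-AS, antisense RNAs within HOXA, rose with DAC. Their log2 fold changes were above those of HOXA10 and HOXA11, although the difference between the genes was not tested. HOXA10-AS had 7.35, 5.46 and 6.46 in the untreated libraries, 24.9, 21.4 and 24.9 with DAC, 6.34, 5.46 and 2.50 with ATRA and 19, 28.4 and 18.5 with DAC + ATRA. HOXA10-AS rose by 1.74 ± 0.34 (SE) with DAC and 1.61 ± 0.34 (SE) with DAC + ATRA. HOXA11-AS had 33.1, 47.3 and 32.3 in the untreated libraries, 83.2, 75 and 77.7 with DAC, 33.8, 49.2 and 40.8 with ATRA and 76.8, 83.2 and 61.8 with DAC + ATRA. HOXA11-AS rose by 1.07 ± 0.20 (SE, adjusted p = 0.000103) and 0.97 ± 0.20 (SE, adjusted p = 0.000238). For both, the 6 libraries with DAC lay above the 6 without it. HOTTIP, which lies beside HOXA13 and is known to keep the 5′ HOXA genes active, had 245, 244 and 249 in the untreated libraries, 337, 298 and 361 with DAC, 296, 307 and 328 with ATRA and 372, 409 and 361 with DAC + ATRA. It rose by 0.43 ± 0.12 (SE, adjusted p = 0.00467) with DAC. This call was lost in 9 of 23 alternatives, among them without untreated libraries 1, 2 or 3 or DAC libraries 4 or 6 (log2 fold change 0.36 to 0.43, adjusted p 0.014 to 0.0298). With DAC + ATRA it rose by 0.63 ± 0.12 (SE, adjusted p = 7.97e-05), a call that held under all 23. The library kit keeps strand, but the sources used here do not say whether strand was used in counting, and without it reads of a gene and its antisense partner cannot be told apart.

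In the HOXC cluster (hg38 chr12:53935328-54056030), DAC raised HOXC8, HOXC11, HOXC12, HOXC13 and HOTAIR and lowered HOXC5. HOXC12, which acts in late limb and trunk patterning, had 0, 0.910 and 0.924 in the untreated libraries, 396, 308 and 364 with DAC, 1.06, 0.910 and 1.66 with ATRA and 183, 217 and 154 with DAC + ATRA. With DAC it was higher by 579-fold (95% exact counting interval 159.9 to 4788, 1047 against 2 reads). Its log2 fold change with DAC was 7.84 ± 0.28 (SE). Every DAC + ATRA library lay below every DAC library, at -0.95 ± 0.28 (SE, adjusted p = 0.0231), which was not called here but was by DESeq2 (adjusted p = 2.12e-06) and edgeR (adjusted p = 8.14e-06). HOXC13, a hair and nail gene that also forms NUP98 fusions in AML, had 16.5, 32.8 and 23.1 in the untreated libraries, 198, 153 and 187 with DAC, 28.5, 24.6 and 21.6 with ATRA and 142, 149 and 135 with DAC + ATRA. HOXC13 rose by 2.89 ± 0.21 (SE, adjusted p = 1.47e-11) with DAC and 2.56 ± 0.21 (SE, adjusted p = 9.67e-11) with both. HOXC11 had 2.76, 2.73 and 3.69 in the untreated libraries, 22.7, 17.5 and 20.9 with DAC, 4.22, 4.55 and 3.33 with ATRA and 11.8, 13.7 and 7.41 with DAC + ATRA. HOXC11 rose by 2.40 ± 0.37 (SE) with DAC and by 1.53 ± 0.37 (SE) with both. The latter call was lost without DAC + ATRA library 11 (log2 fold change 1.36, adjusted p = 0.011). For HOXC11, HOXC12 and HOXC13 alike, all 6 libraries with DAC lay above all 6 without DAC.

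HOTAIR, a noncoding RNA between HOXC11 and HOXC12 that is known to bind Polycomb proteins, had 18.4, 28.2 and 29.6 in the untreated libraries, 69.2, 61.4 and 62.7 with DAC, 30.6, 28.2 and 31.6 with ATRA and 72.3, 66.3 and 69.2 with DAC + ATRA. HOTAIR rose by 1.34 ± 0.20 (SE, adjusted p = 6.51e-06) with DAC and 1.44 ± 0.20 (SE, adjusted p = 1.59e-06) with DAC + ATRA. The 6 libraries with DAC did not overlap with the others. HOXC8 had 7.35, 16.4 and 10.2 in the untreated libraries, 31.3, 27.3 and 29.9 with DAC, 8.45, 19.1 and 20.0 with ATRA and 35.3, 21.1 and 21 with DAC + ATRA. HOXC8 rose by 1.38 ± 0.33 (SE, adjusted p = 0.00129) with DAC and 1.15 ± 0.33 (SE, adjusted p = 0.00484) with both, with the 6 libraries with DAC above the others. Its call with DAC was lost without untreated library 1 (log2 fold change 1.13, adjusted p = 0.0122). Its call with both was lost without untreated libraries 1 or 3 or DAC + ATRA library 10 (log2 fold change 0.90 to 1.11, adjusted p 0.0163 to 0.0445). HOXC10 had 32.2, 36.4 and 36 in the untreated libraries, 59.5, 41.9 and 53.8 with DAC, 73.9, 58.3 and 53.3 with ATRA and 38, 50.5 and 47 with DAC + ATRA. HOXC10 rose with ATRA alone, by 0.80 ± 0.20 (SE, adjusted p = 0.00886). This call was lost in 13 of 23 alternatives, among them without untreated libraries 1, 2 or 3, DAC library 6, ATRA libraries 7 or 8 or DAC + ATRA libraries 11 or 12 (log2 fold change 0.66 to 0.83, adjusted p 0.0109 to 0.065).

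HOXC5, toward the 3′ end of the cluster, had 7.35, 9.10 and 6.46 in the untreated libraries, 1.08, 1.95 and 3.98 with DAC, 13.7, 25.5 and 13.3 with ATRA and 5.42, 2.11 and 2.47 with DAC + ATRA. It had fewer in every DAC library than in any untreated library and more in every ATRA library. It was the single member called lower with DAC, at -1.46 ± 0.43 (SE, adjusted p = 0.00794), on 7 reads over the DAC group, and the call was lost in 12 of 23 alternatives, among them without untreated libraries 1, 2 or 3 or DAC libraries 4 or 5 (log2 fold change -1.55 to -1.16, adjusted p 0.0159 to 0.0481). HOXC5 passed the filter only through the ATRA libraries, so that its value of -2.11 ± 0.43 (log2, SE) for DAC + ATRA against ATRA is a description. With ATRA alone its log2 fold change was 1.05 ± 0.43 (SE, adjusted p = 0.136). HOXC4 had 68.8 ± 3.08 in untreated cells and 52.1 ± 8.72 with DAC + ATRA and was called in no comparison, although its DAC + ATRA libraries all lay below the untreated and the DAC libraries. With its 3 rows summed, HOXC4 was called lower with DAC + ATRA, at a log2 fold change of -0.51 against untreated cells (adjusted p = 0.00251) and of -0.76 against DAC (adjusted p = 0.000221). HOXC6 with 1.84 to 9.50 normalized reads, HOXC9 with 0 to 5.42 and HOXC13-AS with 0 to 14.9 stayed under the filter, while HOXC9 had no read in untreated cells, 12 reads with DAC and 13 with DAC + ATRA.

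**Figure D5:**
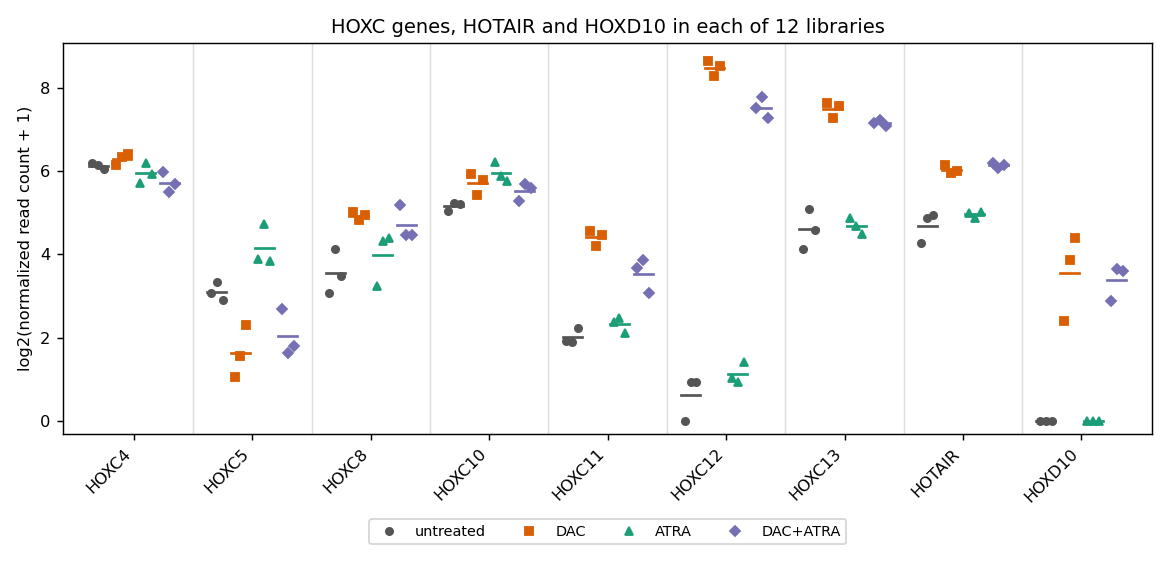
Level of 7 HOXC genes, HOTAIR and HOXD10 in each library as log2(normalized read count + 1); points are libraries, 3 per group, and bars are group means. HOXC11, HOXC12, HOXC13, HOTAIR and HOXD10 were higher in all DAC and DAC + ATRA libraries than in the others, whereas HOXC5 was lower with DAC than in untreated cells.

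The HOXD cluster (hg38 chr2:176092721-176190907) stayed close to silent. Its 9 members had 1 read in all in the untreated libraries and none in the ATRA libraries, and their sum was 27.3 ± 13.9 normalized reads with DAC and 22.4 ± 4.65 with DAC + ATRA. Only HOXD10 passed the filter, with 0 in all untreated and ATRA libraries, 4.32, 13.6 and 19.9 with DAC and 6.33, 11.6 and 11.1 with both, at least 14-fold and at least 10.3-fold above 3 reads over the untreated group. The next was HOXD13, with 20 reads over the DAC group and 10 with DAC + ATRA. Next came HOXD9 with 8 and 9, HOXD11 with 7 and 5, HOXD1 with 4 and 8 and HOXD12 with 4 and 3. HOXD4 and HOXD8 had 1 read each in all 12 libraries, and HOXD3 had none. The count of HOXD8 says little, because only 11 bases of its counted transcript lie outside other transcripts on the same strand. A group with no read allows a level of up to 3 reads, so silence means only that a gene lay under that floor at this depth.

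DAC blocks the enzymes that methylate CpG, so the CpG content of promoters is shown for a few members. RefSeq promoters (GRCh38.p14, 250 bases before to 50 after the start) were at hand for 22 of the 45 symbols, with 29 starts. The table held none for HOXB2, HOXB3, HOXB4, HOXB5, HOXB7, HOXB8, HOXB9, HOXB13 and HOXC12, the 9 members with the largest log2 fold change with DAC + ATRA. Those at hand held a median of 22 CpG per 300 bases, beside 14 over 35116 promoters of all genes, and none of them held a DR5 element, which 0.0883% of all promoters did. Printed are 3 called members whose RefSeq start is also the start of the counted transcript: HOXD10, which was found only with DAC, HOXA2, which was highest with DAC + ATRA, and HOXA10, which was expressed without drug. CpG is in capitals.
HOXD10, chr2:176116528-176116827, plus strand, 23 CpG: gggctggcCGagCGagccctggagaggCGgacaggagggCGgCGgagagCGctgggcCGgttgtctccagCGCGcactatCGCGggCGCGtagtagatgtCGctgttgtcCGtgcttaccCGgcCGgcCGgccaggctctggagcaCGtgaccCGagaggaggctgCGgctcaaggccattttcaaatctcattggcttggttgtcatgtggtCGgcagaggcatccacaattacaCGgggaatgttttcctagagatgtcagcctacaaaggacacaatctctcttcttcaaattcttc
HOXA2, chr7:27102634-27102933, minus strand, 11 CpG: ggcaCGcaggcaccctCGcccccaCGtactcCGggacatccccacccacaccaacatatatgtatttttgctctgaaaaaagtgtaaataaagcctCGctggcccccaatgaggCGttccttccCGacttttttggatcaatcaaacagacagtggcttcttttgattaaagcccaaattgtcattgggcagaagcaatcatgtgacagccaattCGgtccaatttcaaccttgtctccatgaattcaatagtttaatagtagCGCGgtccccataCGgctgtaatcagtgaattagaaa
HOXA10, chr7:27174271-27174570, minus strand, 25 CpG: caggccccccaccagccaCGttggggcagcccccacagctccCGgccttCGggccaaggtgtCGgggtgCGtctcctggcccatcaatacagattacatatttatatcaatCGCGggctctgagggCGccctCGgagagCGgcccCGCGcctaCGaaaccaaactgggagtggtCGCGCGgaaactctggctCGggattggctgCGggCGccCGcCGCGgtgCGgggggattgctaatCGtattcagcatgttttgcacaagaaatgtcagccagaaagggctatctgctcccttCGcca
The promoter of HOXD10 thus had nearly as many CpG as that of HOXA10, and HOXA2 fewer than the median of all genes. Methylation of these sites was not analysed here.

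Compared per kb of transcript outside other transcripts on the same strand, the order of the members changed with treatment. In untreated cells HOXA7 led with 522 normalized reads per kb, followed by HOXA5 with 247, HOXA11-AS with 235 over only 160 such bases, HOXA6 with 189 and HOXA9 with 139.9, and the highest HOXB gene was HOXB3 with 9.96. With DAC + ATRA the order was HOXA7 with 652, HOXA11-AS with 462, HOXA5 with 447, HOXB3 with 373 and HOXA6 with 258. Next came HOXB5 with 181, HOTTIP with 159.9, HOXB4 with 153 and HOXA9 with 141 per kb. HOXA13 could not be placed in this order because its counted transcript is not in GENCODE 44. Members with under 100 bases outside other transcripts on the same strand were not placed either. Among them was HOTAIRM1, with 61 such bases and means of 30.0 in untreated cells and 54.6 with DAC + ATRA. The order thus holds only among the members placed.

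DAC + ATRA was also compared with ATRA alone, which asks what DAC added in ATRA-treated cells. Of the 30 members, 16 were higher and 1, HOXC5, was lower, against 29.4% of all tested transcripts (19.1% higher). Restricted to the 15 members with at least 10 normalized reads in every untreated library, 5 were called, a share near that of all transcripts. The others called had entered the test through treated libraries. All 8 HOXB genes were higher. HOXB3 was higher by 4.71 ± 0.21 (SE, adjusted p = 1.9e-15), HOXB4 by 6.44 ± 0.31 (SE) and HOXB13 by 5.50 ± 0.31 (SE). HOXB5 and HOXB9 had no read with ATRA. In HOXC, HOXC12 was higher by 6.39 ± 0.28, HOXC13 by 2.47 ± 0.21 and HOTAIR by 1.17 ± 0.20 (SE). In HOXA the antisense RNAs HOXA10-AS and HOXA11-AS together with HOXA2 and HOXA5 were higher, and HOXD10 was higher, with no read in the ATRA libraries. The call of HOXA11-AS was lost without ATRA library 7 or DAC + ATRA library 11 (log2 fold change 0.70 to 0.74, adjusted p 0.0132 to 0.0138). This comparison shares the DAC + ATRA libraries with those above.

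Among the noncoding RNAs of the clusters that the symbol rule leaves out, 4 of 18 in the table could be tested, and all 4 were called with DAC + ATRA, beside 41.6% of all transcripts. HOXA-AS2, which is transcribed between HOXA3 and HOXA4, had 2.76 ± 1.85 normalized reads in untreated cells, 7.95 ± 5.27 with DAC, 8.75 ± 2.26 with ATRA and 86 ± 8.73 with both (mean ± SD, n = 3). It passed the filter only through the DAC + ATRA libraries, where it was highest, so that its difference from DAC is a description. HOXB-AS1 had no read without DAC and 8.41 ± 2.30 with DAC, so that it passed the filter only through libraries with DAC. HOXA-AS3 had 20.2 ± 5.57 in untreated cells and 82 ± 10.7 with both drugs. HOXC-AS3 went the other way, from 79.5 ± 4.39 to 24.8 ± 2.87 with DAC and 17.3 ± 2.58 with both. HOXC-AS3 had a log2 fold change of -1.65 ± 0.20 (SE, adjusted p = 1.88e-07) with DAC.

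Among the genes next to the clusters, 9 of the 15 in the table were tested, of which 4 were higher and 1 lower with DAC, beside 33.5% of all transcripts. PRAC1, between HOXB9 and HOXB13, had no read in untreated cells and 327 ± 37.3 normalized reads with DAC. EVX1, a homeobox gene beyond HOXA13, had 5.52 ± 4.04 and 14.7 ± 3.84. PRAC1 and EVX1 passed the filter only through libraries with DAC, where they were higher, so that these differences are a description. SKAP2, an adaptor gene beside the HOXA cluster, had 1955 ± 33.5 and 2787 ± 272. CALCOCO1, near HOXC13, had 30.9 ± 4.49 and 61.4 ± 4.27. CBX5, which encodes the heterochromatin protein HP1 alpha and lies beyond HOXC4, fell by 0.93 on the log2 scale with DAC.

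The HOX proteins bind DNA with TALE cofactors, of which 5 of 9 were tested. MEIS1, the partner of HOXA9 in leukemia, went from 1124 ± 178 to 435 ± 59.8 with DAC, 812 ± 182 with ATRA and 321 ± 12.2 with both, and fell by 1.36 with DAC and by 1.79 with DAC + ATRA on the log2 scale. MEIS3 rose with DAC by 1.51 ± 0.24 (SE, adjusted p = 1.22e-05) and the other 3 were not called, so that 40% were called with DAC, near the 33.5% of all transcripts. Of 10 reported targets of HOXA9 and MEIS1, 7 were tested. With DAC alone 1 rose and 2 fell, or 42.9% beside 33.5% of all transcripts, with a list median of -0.10. With ATRA alone 2 rose and 1 fell, or 42.9% beside 6.97%, with a list median of -0.01. Whether these genes follow MEIS1 was not tested. With DAC + ATRA, 4 fell (among them MYB by 1.61, BCL2 by 1.29 and CDK6 by 1.15) and 2 rose (PIM1 by 3.58 and SOX4 by 0.72), or 85.7% beside 41.6% of all transcripts, with a list median of -0.75 beside 0.05 over all transcripts.

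Of 33 chromatin regulators known to act on HOX loci, 26 were tested, and 7 rose and 3 fell with DAC, or 38.5% beside 33.5% of all transcripts. The H3K27 demethylase KDM6B rose by 1.76 ± 0.15 (SE, adjusted p = 4.67e-10) with DAC and the elongation factor AFF4 by 0.67, while PSIP1, which encodes the chromatin tether LEDGF, fell by 1.26. CDX2, a homeobox activator of HOX genes, had 3.67 ± 0.943 in untreated cells, 68.2 ± 5.38 with DAC, 0.555 ± 0.961 with ATRA and 26.3 ± 2.02 with both. CDX2 passed the filter only through libraries with DAC, so that its difference with DAC is a description. With DAC + ATRA 6 rose and 6 fell, or 46.2%, near the 41.6% of all transcripts. Those that fell included the Polycomb subunits EZH2, with a log2 fold change of -1.15 ± 0.28 (SE, adjusted p = 0.00118), and EED, with -1.07 ± 0.24 (SE, adjusted p = 0.000591). With ATRA alone none rose and 2 were lower, CDX2, which fell by 1.73, and the Polycomb subunit BMI1, which fell by 0.86 ± 0.17 (SE, adjusted p = 0.00186), or 7.69% beside 6.97% of all transcripts. The part of these regulators in the HOX values was not tested.

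Homeobox genes outside the clusters moved with DAC as well. Of the 65 listed, 27 were tested, and 16 rose and 3 fell with DAC, or 70.4% of those tested, beside 22 of 30 (73.3%) of the HOX members and 33.5% of all transcripts. Those with the largest change were DLX3, from 0.303 ± 0.526 to 182 ± 66.9, VENTX, from 0.306 ± 0.531 to 82.5 ± 11.7, and SIX2, from no read to 33.2 ± 17.8 normalized reads. DLX1 fell by 1.16, POU6F1 fell by 0.98 and SATB1 fell by 0.71 on the log2 scale. DLX3, VENTX and SIX2 passed the filter only through libraries with DAC, both shares include such genes, and no test set these lists against each other.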

How the data were processed

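RNA of U937 cells was depleted of rRNA, made into stranded libraries and sequenced as paired reads by the authors. According to the submitters' processing notes, STAR served for alignment to hg38, HTSeq for counting and DESeq2 for normalization. The versions, strand and overlap settings are not given in the sources used here. The deposited table holds signal values, namely read counts per transcript divided by a size factor for each library, for 197782 transcripts in 12 columns. Whole reads were recovered from the steps between low values, and 100% of values in each library were whole within 0.01 reads. The columns name the group but not the replicate, so libraries are numbered by column: untreated 1 to 3, DAC 4 to 6, ATRA 7 to 9 and DAC + ATRA 10 to 12.

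Transcripts with at least 10 normalized reads in at least 3 libraries (19373) were tested with limma 3.58.1 in R 4.3.3 on log2(normalized reads + 1), in 1 fit of all 12 libraries with robust empirical Bayes and a mean-variance trend. P-values are two-sided and were adjusted by Benjamini-Hochberg over all 19373 transcripts within each of 6 comparisons, and calls were made at 0.01. Alternatives were edgeR 4.0.16 and DESeq2 1.42.0 on the recovered reads (6770 transcripts called with DAC by edgeR and 6485 by limma), other scalings, filters, pseudocounts and row choices, and leaving out each library. Where a group had no read, a fold was set against 3 reads over that group, and intervals and this floor cover counting error only. On simulated counts of the DAC comparison with 200 changed transcripts, limma recovered 83% of 2-fold and 98% of 4-fold changes. The changed transcripts were drawn from the better counted ones, and the spread was set alike for all. These shares therefore do not apply to members near the filter. Gene coordinates came from GENCODE 44 and sequences from RefSeq (GRCh38.p14) or the hg38 genome. Members called in any comparison were given with every library, apart from items that are not reported here, and of the other gene lists up to 3 called genes in each direction were named. The members, gene lists and tests were chosen with earlier results of these data known, and the start match required of printed promoters was added after the files were seen.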

Additional observations from a re-analysis of the deposited data

Results flagged for a closer look

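The interaction term of DAC and ATRA in the limma fit passed the threshold for 2 HOX genes (Benjamini-Hochberg adjusted over 19373 transcripts). HOXB5 had an interaction of 2.13 on the log2 scale (adjusted p = 0.00444), but with 0 reads in all 6 libraries without DAC this is its value for DAC + ATRA against DAC, and it shows no difference in the effect of ATRA between cells with and without DAC. HOXB13 had an interaction of -2.37 (adjusted p = 0.00281), with 0 to 2.73 normalized reads in the untreated libraries. Neither interaction was called by DESeq2 (adjusted p = 0.657 for HOXB5 and 0.0126 for HOXB13), and edgeR called HOXB13 only.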

How the results depend on the processing

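Of the 72 calls of HOX members in 6 comparisons, 51 held under all 23 alternatives, 21 were lost under at least 1 and none changed direction. With ATRA alone, the count of 3 called members became 1 with DESeq2, 0 when only the groups compared were fitted and 1 with DESeq2 without DAC library 6. For DAC + ATRA against DAC, a pseudocount of 0.1 left 4 of 7. The 2 interactions became 0 with DESeq2, 1 with edgeR, 0 with a pseudocount of 0.1, 1 with edgeR and 0 with DESeq2 without DAC library 6, and 5 at an adjusted p under 0.05. The causes were not tested. Leaving out 1 library gave 19 to 23 calls with DAC, 1 to 4 with ATRA, 18 to 23 with DAC + ATRA, 4 to 8 for DAC + ATRA against DAC, 15 to 17 against ATRA and 0 to 4 interactions. The ATRA count was 1 without untreated library 1 or 2 or ATRA library 8, and the count against DAC was 4 without DAC library 4 or DAC + ATRA library 10 or 11. The interactions were 1 without untreated library 3, DAC library 4 or 6 or DAC + ATRA library 11 or 12, 0 without DAC + ATRA library 10 and 4 without ATRA library 9, where calls over all transcripts went from 293 to 571. Scaling by library totals moved the median log2 fold change of all transcripts with DAC from 0.05 to -0.07 and with DAC + ATRA from 0.05 to -0.09, and it moved the share of calls that were higher from 66.2% to 55.6% with DAC, from 73.2% to 60.6% with ATRA and from 61.3% to 51.5% with both. For the interaction that share was 34.8%, and it was 21.5% with DESeq2, 23.4% with edgeR and 21.7% with a pseudocount of 0.1, where calls over all transcripts went from 293 to 194. The alternatives that leave out DAC library 6 with edgeR or DESeq2 and limma with TMM scaling were chosen after seeing the data.

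No paired analysis was possible because the columns carry no replicate numbers. The 3 libraries of a group are technical triplicates of 1 cell line, the untreated cells are labelled with another time than the treated ones, and genes with few reads, among them most of HOXD, could not be compared at this depth.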
